A study of Mus musculus with 6 samples.

Results

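Mitochondrial ribosomal protein genes were examined in all 6 mouse libraries, as the genes whose symbol starts with Mrpl or Mrps followed by a number and at most 1 letter. They were 77 of the 30281 gene symbols in the transcript table, 48 named for the large subunit (Mrpl) and 29 for the small subunit (Mrps). Estimated counts and TPM, a share of all transcripts that is corrected for their length, were summed over the 265 transcripts of these genes. MEF libraries came from Tsc2-/- p53-/- and Tsc2+/+ p53-/- mouse embryonic fibroblasts, both labelled as given no treatment. The other 4 libraries came from MKOC and TJ cells, a pair of kidney epithelial lines labelled Tsc2-null, each untreated or given 100 nM rapamycin, an inhibitor of the kinase complex mTORC1, for 18 hours. TJ cells were derived from a secondary tumor in C57BL6 mice. The treatment note, written alike for every library, states medium without serum and with BSA, and diluent for cells without rapamycin. Each condition of each cell line was 1 library, so the kidney lines were the 2 replicates of the rapamycin comparison, and all other comparisons have no replicate check.

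Mitochondria carry their own ribosome, which makes the few respiratory chain subunits that are encoded by the mitochondrial genome. Its ribosomal RNAs come from that genome, but every one of its proteins is encoded in the nucleus, made in the cytosol and imported. Many of these proteins have a counterpart in bacterial ribosomes, and the rest are found only in mitochondria. Tsc2 holds mTORC1 in check, and mTORC1 is known to raise the synthesis of mitochondrial proteins. Symbols do not always follow position: Mrps18a and Mrps30 are known to lie in the large subunit, and the Mrps36 protein is known as a part of the 2-oxoglutarate dehydrogenase complex.

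Total estimated counts were between 22887020 and 37505004 per library, and the 77 genes took between 0.260% and 0.344% of them. Summed over 10 genes, fibroblast markers reached 2096 TPM in Tsc2+/+ and 2579 TPM in Tsc2-/- MEFs, and between 7.78 and 52.3 TPM in the kidney libraries. Kidney epithelium markers summed to between 1461 and 2502 TPM in the kidney libraries, although Cldn7 was listed at 0 there and Epcam reached 0.027 TPM at most. Macrophage, endothelial and muscle markers summed to at most 34.8, 3.71 and 22.9 TPM in any library. Tsc2 RNA was present in libraries labelled as lacking it, with 10.5 TPM in the Tsc2-/- against 22.6 TPM in the Tsc2+/+ fibroblasts, and 49.1 and 44.0 TPM in untreated MKOC and TJ cells. With rapamycin Tsc2 RNA was at 19.5 and 19.1 TPM in these lines, a log2 fold change of -1.27 (SE 0.10, adjusted p = 2.28e-05, edgeR), larger than that of any of the 77 genes. Trp53 RNA was at 26.3 and 28.5 TPM in the Tsc2+/+ and Tsc2-/- MEFs, both labelled p53-/-. The table does not show which exons these reads covered.

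All 77 genes were expressed in every library. The lowest of them was Mrpl57, a protein found only in mitochondria, at between 5.99 and 9.84 TPM. The gene with the highest level differed between libraries, and was Mrpl30 at 219 TPM in Tsc2+/+ MEFs, Mrps21 at 186 TPM in Tsc2-/- MEFs, Mrps16 in both untreated kidney libraries (283 TPM in MKOC and 260 TPM in TJ cells) and Mrpl33 in both rapamycin libraries (306 TPM in MKOC and 259 TPM in TJ cells). The median gene of the 77 stood above between 75.0% and 80.8% of the genes with a mean of at least 1 TPM in each library. By mean TPM over the libraries, Mrps16 (204 TPM), Mrpl33 (199.6 TPM), Mrps21 (175 TPM) and Mrpl30 (172 TPM), all of bacterial families, and the mitochondria-specific Mrpl42 (186 TPM) led. Mrpl57 (7.86 TPM), Mrpl23 (12.5 TPM), Mrpl35 (17.0 TPM), Mrpl11 (17.7 TPM) and Mrpl1 (23.2 TPM) were lowest. The genes of 1 ribosome thus differed over 10-fold in mRNA level, in Tsc2+/+ MEFs as in untreated MKOC cells. Their order was alike between libraries: across the 77 genes, log2 TPM correlated with a Pearson r of 0.99 between untreated MKOC and TJ cells, 0.87 between the MEF libraries and 0.81 between Tsc2+/+ MEFs and untreated MKOC cells, values that share gene length and composition.

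**Figure D1:**
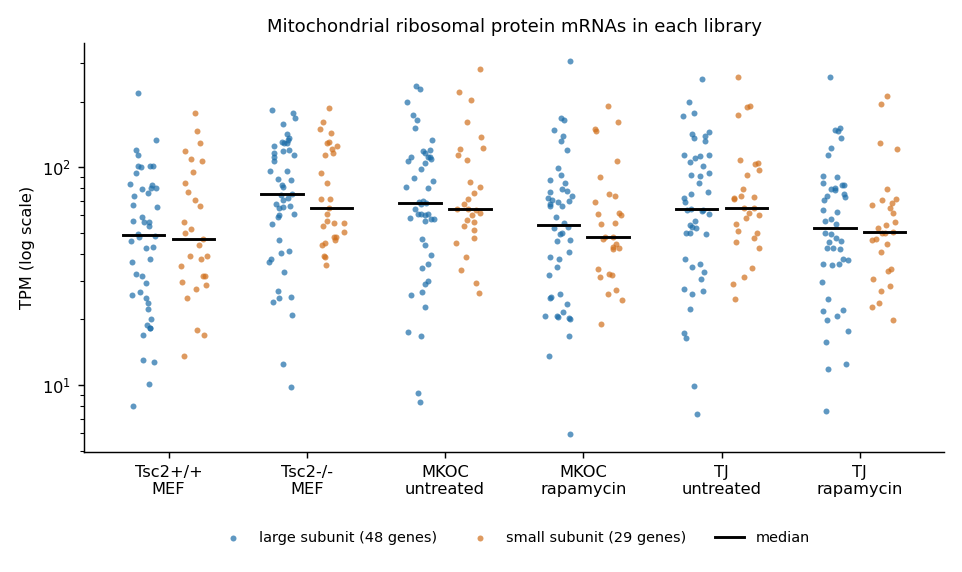
TPM of each of the 77 genes on a log axis in the 6 libraries, with large subunit symbols (48 genes, blue) and small subunit symbols (29 genes, orange) side by side and a black bar at each median. Medians of both subunits were lower in the rapamycin libraries of both kidney lines than in the untreated ones, and lower in Tsc2+/+ than in Tsc2-/- MEFs.

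The genes were spread over 17 chromosomes, with 10 on chromosome 11, 8 on chromosome 17 and 7 on chromosome 6 (GENCODE M21, build GRCm38). A protein-coding gene on the opposite strand started within 1000 bases of the start of 33 of the 77 genes (42.9%), against 16.4% of 11512 other coding genes with a mean of at least 1 TPM. One such pair joined members of both subunits, since Mrpl46 and Mrps11 overlap by 412 bases at their starts on chromosome 7. For 15 of the 33 genes the annotated starts overlapped those of the partner, and whether the quantification used the strand of the reads is not given in the sources used here.

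Promoter sequences of RefSeq (GRCm38.p6) covered 68 of the 77 genes, from 250 bases before to 50 bases after the start site. Matches of both strands were counted for the motifs of NRF1 (GCGCANGCG) and of the ETS family, to which GABP belongs (CCGGAAG), 2 factors known for promoters of mitochondrial genes, and of YY1 (AANATGGCG). The last letters of the ETS motif can be the first of the YY1 motif, but no window held matches that overlapped. The ETS letters were in 25 windows (36.8%, against 20.5% of 9066 other coding genes with a mean of at least 1 TPM), the NRF1 letters in 16 (23.5%, against 15.6%) and the YY1 letters in 10 (14.7%, against 6.18%). At least 1 of the 3 motifs was in 42 windows (61.8%, against 36.1%). The E-box CACGTG, bound by Myc and the MiT/TFE factors, was in 5 windows (7.35%, against 11.9%).

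The 120 bases before the start site are printed for the gene with the largest fall under rapamycin (Mrps22, chr9:98601680-98601799, minus strand), the next largest (Mrpl1, chr5:96209995-96210114, plus strand), the gene that rose (Mrpl33, chr5:31613831-31613950, plus strand), Mrpl12 (chr11:120484517-120484636, plus strand) and the Mrps18 paralogs (Mrps18a, chr17:46110884-46111003, plus strand; Mrps18b, chr17:35916441-35916560, minus strand; and Mrps18c, chr5:100798639-100798758, plus strand). Capitals mark a match to a motif, in either orientation.
Mrps22: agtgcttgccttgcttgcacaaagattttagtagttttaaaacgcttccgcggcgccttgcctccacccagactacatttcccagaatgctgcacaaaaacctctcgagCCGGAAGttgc
Mrpl1: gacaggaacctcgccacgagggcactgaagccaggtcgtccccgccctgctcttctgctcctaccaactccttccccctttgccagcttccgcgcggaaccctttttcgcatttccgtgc
Mrpl33: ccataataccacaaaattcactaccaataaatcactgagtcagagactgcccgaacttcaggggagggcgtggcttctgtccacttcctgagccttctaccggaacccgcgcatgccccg
Mrpl12: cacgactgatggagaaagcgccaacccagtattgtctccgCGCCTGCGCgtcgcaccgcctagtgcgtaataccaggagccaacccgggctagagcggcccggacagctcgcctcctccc
Mrps18a: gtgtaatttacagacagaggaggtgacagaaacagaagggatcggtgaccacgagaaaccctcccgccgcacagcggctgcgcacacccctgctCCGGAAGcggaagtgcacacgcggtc
Mrps18b: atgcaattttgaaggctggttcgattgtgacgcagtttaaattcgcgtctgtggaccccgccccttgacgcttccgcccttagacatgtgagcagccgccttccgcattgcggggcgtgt
Mrps18c: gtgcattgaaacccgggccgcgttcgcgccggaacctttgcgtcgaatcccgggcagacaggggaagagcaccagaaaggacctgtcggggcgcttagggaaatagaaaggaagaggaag
Mrps22 and Mrps18a hold the ETS letters close to the start site and Mrpl12 holds the NRF1 letters farther upstream. The stretches of Mrpl1, Mrpl33, Mrps18b and Mrps18c hold no match. An ETS match of Mrpl33 spans the start site and so is not shown, and matches of Mrps18b and Mrps18c lie outside the stretch.

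With rapamycin, mRNAs of mitochondrial ribosomal proteins were lower in both kidney lines. The comparison asks how 18 hours of mTORC1 inhibition changed these mRNAs in cells labelled Tsc2-null. Summed TPM of the 77 genes was 6538 in untreated and 5081 in rapamycin-treated MKOC cells, and 6226 in untreated and 4938 in rapamycin-treated TJ cells, a fall by 22.3% in MKOC and 20.7% in TJ cells. Both treated libraries were below both untreated ones (exact permutation test, two-sided p = 0.333 with n = 2, the smallest that 2 against 2 libraries allow). That test exchanges libraries across the lines and does not use their pairing. In bulk RNA, less of an mRNA in each cell and fewer cells that express it cannot be told apart. By edgeR's quasi-likelihood test, with a term for the line and p adjusted after Benjamini and Hochberg over 12952 genes, 42 of the 77 genes fell, 1 rose and 34 did not pass. Over all genes tested, 17.4% were called lower and 17.5% higher. Their log2 fold changes had a median of -0.39, beside 0.02 for all genes, and 71 of the 77 values were below 0. On TPM, both rapamycin libraries lay below both untreated ones for 61 of the 77 genes, where 29% of 12513 genes did, and above them for 3 genes, where 29.2% did. With any 1 of the 4 libraries left out and the line dropped from the model, the median was between -0.43 and -0.33. Such a fit leaves 1 library in a treatment, and nearly all calls were then lost, over all genes as well as among the 77. With the line left out of the model of all 4 libraries, 16 fell and 0 rose, where 5.53% of all genes were called lower and 4.32% higher. DESeq2 called 29 lower and 0 higher, where 13.4% and 12.4% were of the 11947 genes to which it gave an adjusted p. Both fits had 1 of the 77 genes higher at an unadjusted p under 0.05, where 14.4% of all genes were without the line and 15.9% of 12952 genes with DESeq2. Marker levels also moved: kidney epithelium markers summed to 1461 and 1677 TPM in untreated and 2109 and 2502 TPM in treated MKOC and TJ cells, with Krt8, Krt18 and Cdh16 called higher of 7 tested. Fibroblast markers summed to 26.7 and 7.78 TPM untreated and 52.3 and 13.4 TPM treated, most of it Dcn (25.5 and 6.73 TPM untreated, 50.3 and 10.5 TPM treated). Mesothelial markers summed to 80.3 and 70.3 TPM untreated and 151 and 98.4 TPM treated, nearly all of it Msln, which was called higher, while Upk1b was listed at 0 in all 4 libraries. Their part in the result was not tested.

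**Figure D2:**
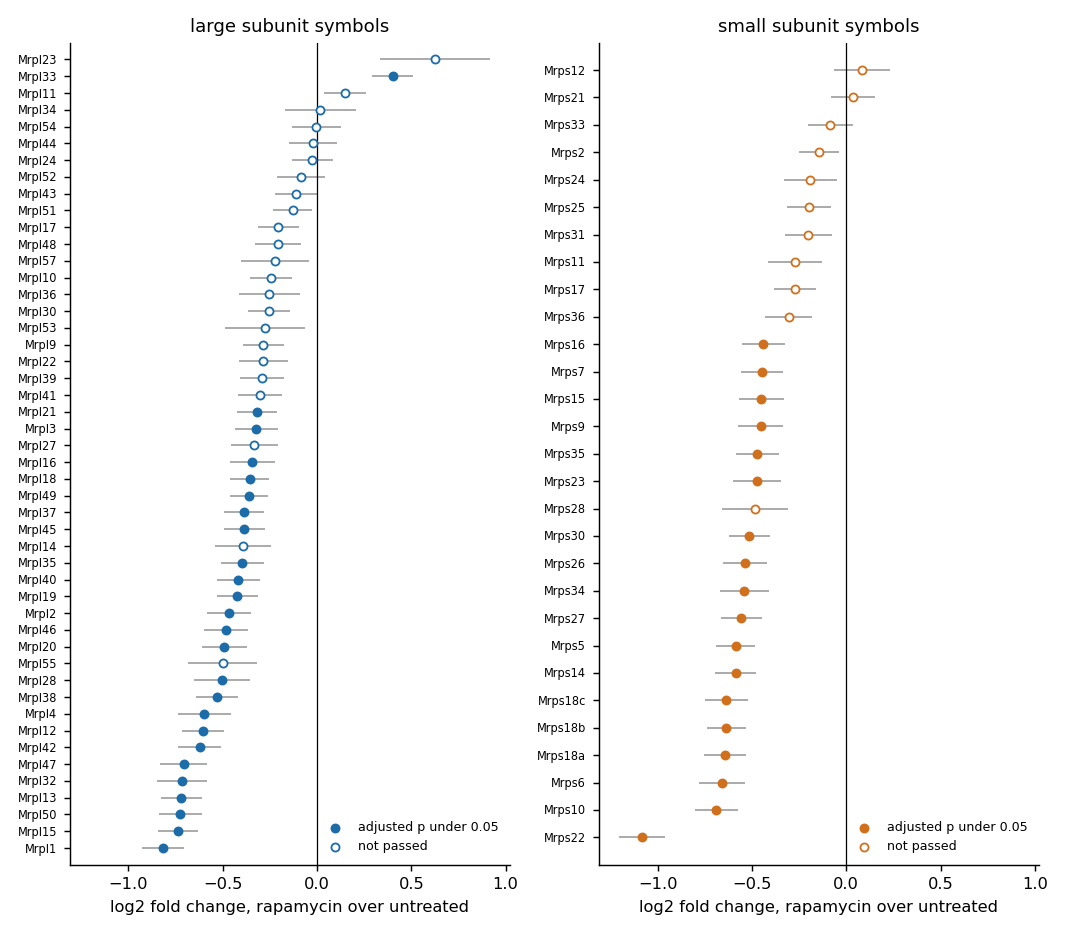
Log2 fold change of each gene, rapamycin over untreated, from the fit over both kidney lines, with its standard error, ordered within large subunit symbols (left) and small subunit symbols (right). Filled points passed an adjusted p of 0.05. Mrps22 lies farthest left at -1.08, and Mrpl33 is the filled point to the right of 0.

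Of the small subunit symbols, 18 of 29 fell and 0 rose, with a median of -0.47, beside 17.4% lower and 17.5% higher over all genes. Mrps22, a mitochondria-specific protein of the small subunit, had 53.5 and 49.97 TPM in untreated MKOC and TJ cells and 26.3 and 22.8 TPM with rapamycin. Its mRNA fell the most of the 77 genes (log2 fold change -1.08, SE 0.12, adjusted p = 0.000173 in the edgeR quasi-likelihood test), to 0.472 of the untreated level. The libraries of the 2 treatments did not overlap and the lines were close to each other. Next in this subunit were Mrps10 (-0.69) and Mrps6 (-0.66), both of bacterial families.

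The Mrps18 paralogs share a bacterial ancestor. Mrps18b and Mrps18c are known as proteins of the small subunit and Mrps18a of the large subunit. Mrps18a had 122 and 104 TPM in untreated MKOC and TJ cells and 73.6 and 71.4 TPM with rapamycin. Mrps18b had 221 and 189 TPM untreated and 146 and 122 TPM with rapamycin. Mrps18c had 137 and 104 TPM untreated and 90.2 and 66.7 TPM with rapamycin. No treated library reached an untreated one for any of them, and their log2 fold changes were close, at -0.64 (SE 0.11, adjusted p = 0.00191), -0.63 (SE 0.10, adjusted p = 0.00122) and -0.63 (SE 0.12, adjusted p = 0.00242, edgeR quasi-likelihood test). Mrps18b and Mrps18c did not pass without the line in the model (adjusted p = 0.0555 and 0.132). The value of Mrps18c moved to -0.40 without untreated MKOC cells and to -0.88 without treated MKOC cells, where Mrps18a had -0.52 and -0.69. Those fits had no term for the line, so a difference between the lines enters the value. Relative to all genes, Mrps18c was lower in TJ than in MKOC cells (log2 ratio -0.41 untreated and -0.42 with rapamycin). Within the lines its log2 ratio with rapamycin was -0.61 in MKOC and -0.63 in TJ cells.

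At the other end of the small subunit, Mrps12 (0.08) and Mrps21 (0.04) had values above 0 and did not pass. Mrps12 had 63.9 and 58.6 TPM in untreated MKOC and TJ cells and 60.2 and 49.8 TPM with rapamycin, so that its TPM was lower in both lines, against the sign from counts. Mrps21 had 162 and 174 TPM in untreated MKOC and TJ cells and 160.5 and 194 TPM with rapamycin. Mrps36, whose protein is assigned to another complex, had 67.8 and 79.2 TPM untreated and 54.7 and 61.8 TPM with rapamycin, and its log2 fold change of -0.30 (SE 0.13) did not pass the edgeR quasi-likelihood test (adjusted p = 0.0841). Limma on log2(TPM + 1) called it lower (adjusted p = 0.0403).

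Of the large subunit symbols, 24 of 48 fell and 1 rose, with a median of -0.34, beside 17.4% lower and 17.5% higher over all genes. Mrpl1, whose bacterial counterpart forms the stalk at which tRNAs leave, had 29.2 and 27.5 TPM in untreated MKOC and TJ cells and 16.8 and 15.8 TPM with rapamycin (log2 fold change -0.82, SE 0.11, adjusted p = 0.00052, edgeR). Mrpl15 had 133 and 142 TPM untreated and 76.6 and 90.3 TPM with rapamycin (-0.74, SE 0.11, adjusted p = 0.000688, edgeR). Mrpl13, like Mrpl15 of a bacterial family, had 112 and 114 TPM untreated and 66.1 and 63.3 TPM with rapamycin (-0.72, SE 0.11, adjusted p = 0.000827, edgeR). In these genes, as in the mitochondria-specific Mrpl50, the gap between treatments was several times that between the lines. Mrpl50 had 34.6 and 34.7 TPM untreated and 20.1 and 22.1 TPM with rapamycin (-0.72, SE 0.11, adjusted p = 0.00102, edgeR).

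Mrpl12, a stalk protein that is also known to bind the mitochondrial RNA polymerase, had 119 and 113 TPM untreated and 72.5 and 80.6 TPM with rapamycin, and fell (-0.60, SE 0.11, adjusted p = 0.00274, edgeR). Mrps30, which lies in the large subunit despite its symbol, had 44.8 and 47.3 TPM untreated and 31.5 and 33.4 TPM with rapamycin, and fell (-0.51, SE 0.11, adjusted p = 0.0056, edgeR), but did not pass without the line in the model (adjusted p = 0.0594). Counting Mrps18a and Mrps30 with the large subunit gave 26 of 50 genes lower there and 16 of 27 in the small subunit.

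Mrpl33, a small protein of a bacterial family, was the 1 gene that rose. It had 228 and 199 TPM in untreated MKOC and TJ cells and 306 and 259 TPM with rapamycin, a fold of 1.32 (log2 fold change 0.40, SE 0.11, adjusted p = 0.0167, edgeR). Both treated libraries were above both untreated ones, but the adjusted p was 0.0557 with DESeq2 and 0.151 without the line in the model, and the log2 fold change was 0.26 without treated MKOC cells. Mrpl23 had a larger value that did not pass (0.63, SE 0.29, adjusted p = 0.121), with 9.18 and 9.94 TPM untreated and 21.6 and 11.8 TPM with rapamycin. Its level rested on 78.6 to 143 estimated counts in the kidney libraries, and a pseudogene copy of it is in the table, so its reads may be divided uncertainly. The values nearest to 0 were those of Mrpl54 (-0.0031), Mrpl34 (0.018) and Mrpl44 (-0.022).

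The lines were also set side by side, as log2((TPM + 1) ratios) relative to the median of all genes. In MKOC cells the median of the 77 genes was -0.37, with 26 genes at least 1.5-fold lower (8.82% of all genes) and 1, Mrpl23, at least 1.5-fold higher (10.9%). In TJ cells the median was -0.36, with 12 genes at least 1.5-fold lower (7.82% of all genes) and 0 at least 1.5-fold higher (10.6%). Values were below 0 in both lines for 64 genes, above 0 in both for 3 and of opposite sign for 10. Across the 77 genes the lines correlated with a Pearson r of 0.63 and a Spearman rho of 0.61, where all 12513 genes gave 0.67 and 0.71. Mrps22 was among the most reduced in both lines (-1.004 in MKOC and -1.101 in TJ cells), while Mrpl4 was at -0.85 in MKOC and -0.32 in TJ cells. Mrpl2, of the core of the large subunit, was at -0.31 in MKOC and -0.89 in TJ cells, but without its transcript under 300 bases, whose TPM rests on a very short effective length, it was at -0.54 and -0.29, so that the order of the lines turned.

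**Figure D3:**
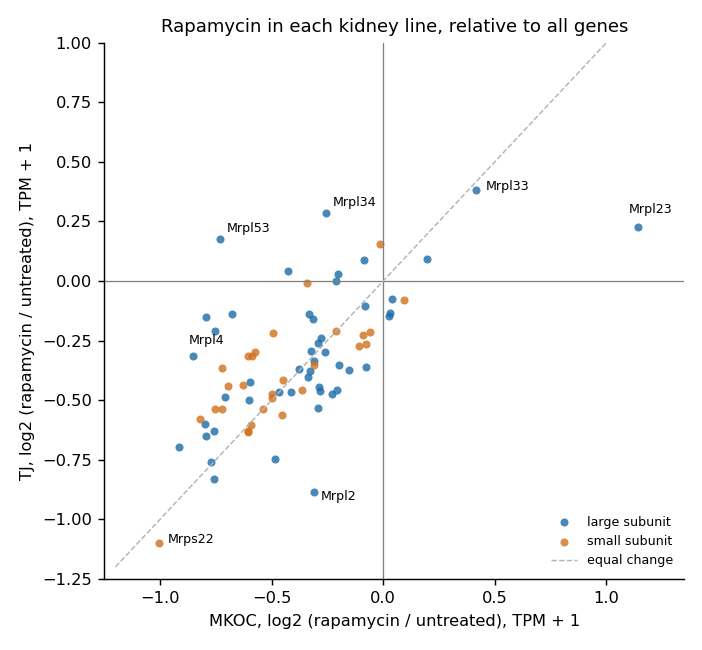
Log2 ratio of rapamycin over untreated TPM + 1 in MKOC cells (horizontal) and TJ cells (vertical) for each of the 77 genes, relative to the median of all genes, with a dashed line where both are equal. Most genes lie below 0 in both lines, Mrps22 lowest, and Mrpl33 and Mrpl23 lie above 0 in both.

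Both kinds of protein were among the genes that fell. Of the genes whose number places them in bacterial families (up to 36 in the large and 21 in the small subunit, a division made after the values were seen), 26 of 44 fell, with a median of -0.39. Of the mitochondria-specific ones, 16 of 33 fell, also with a median of -0.39. Across the 77 genes the log2 fold change correlated with log2 mean TPM with a Pearson r of -0.10 and a Spearman rho of -0.06. Of the genes with an ETS match in the promoter window, 11 of 25 fell, against 24 of 43 without one, and of those with an NRF1 match 6 of 16 fell, against 29 of 52 without one. For the YY1 letters these were 6 of 10 against 29 of 58, and for the E-box 4 of 5 against 31 of 63, with the larger share among genes that hold the letters. No test of these shares was made.

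Of the head-to-head partner genes on the other strand, 7 of the 28 that were tested and are not themselves among the 77 genes fell and 4 rose, with a median log2 fold change of -0.10, beside 17.4% lower and 17.5% higher over all genes. Mrps18b fell by 0.63 while its partner Ppp1r10, whose start is 45 bases away, rose by 0.47, and Mrps34 fell by 0.54 while Eme2, 29 bases away, rose by 0.39. Mrpl32 and Psma2, a proteasome subunit 75 bases away, both fell, by 0.72 and by 0.54. These pairs were chosen after their values were seen.

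The other genes of mitochondrial translation were taken from lists. Mitochondrial ribosomal proteins without an Mrp symbol and the insertase that receives their products fell in 5 of 7 genes and rose in 0. Their median was -0.41, and over all genes 17.4% were lower and 17.5% higher. Ptcd3, a small subunit protein of the pentatricopeptide repeat family, had 78.9 and 84.8 TPM in untreated MKOC and TJ cells and 44.9 and 47.1 TPM with rapamycin (-0.84, SE 0.10, adjusted p = 0.000258, edgeR). Chchd1, also of the small subunit, had 477 and 411 TPM untreated and 292 and 261 TPM with rapamycin (-0.69, SE 0.10, adjusted p = 0.000817, edgeR). Dap3 (-0.36), which binds GTP, and Ict1 (-0.41), which releases stalled peptides, also fell, and Oxa1l, the insertase, had a value of 0.28 that did not pass (adjusted p = 0.075, edgeR). The 6 ribosomal proteins of this list all had values below 0, and 5 passed.

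Of translation factors and mRNA-binding proteins, 5 of 15 fell and 0 rose, beside 17.4% lower and 17.5% higher over all genes. Their median was -0.29. Lrpprc, which stabilizes mitochondrial mRNAs, fell by 0.92, and its partner Slirp fell by 0.52. The elongation factors Gfm1 and Tufm fell by 0.75 and by 0.69, with Tufm at 227 and 170 TPM untreated and 129 and 115 TPM with rapamycin. The initiation factors Mtif2 (-0.14) and Mtif3 (0.02) did not pass. Factors of assembly and ribosomal RNA modification fell in 7 of 27 genes (25.9%, against 17.4% of all genes). They rose in 1 (Mettl15, 3.70%, against 17.5%), with a median of -0.11. Fastkd2 (-0.59) and Grsf1 (-0.51), RNA-binding proteins of mitochondrial RNA granules, were among those that fell.

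Of mitochondrial transcription factors and their nuclear regulators, 4 of 15 fell (26.7%) and 2 rose (13.3%), with a median of 0.08. Over all genes 17.4% were lower and 17.5% higher. Gabpb1, a subunit of the ETS factor GABP, had 44.5 and 38.2 TPM in untreated MKOC and TJ cells and 24.4 and 24.3 TPM with rapamycin, and fell (-0.63, SE 0.11, adjusted p = 0.00235, edgeR). Its DNA-binding partner Gabpa (0.19, adjusted p = 0.20), Nrf1 (-0.17, adjusted p = 0.245) and Yy1 (0.09, adjusted p = 0.54) did not pass in edgeR. Tfam, which packages the mitochondrial genome and starts its transcription, fell by 0.40, and the coactivator Ppargc1a fell by 0.76. Myc had 133 and 152 TPM untreated and 190 and 201 TPM with rapamycin, and rose (0.45, SE 0.10, adjusted p = 0.00591, edgeR).

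The mRNAs of the mitochondrial genome, which these ribosomes translate, moved the other way: 11 of 13 rose and 0 fell, with a median of 0.85. They took 4.80% of TPM in untreated MKOC cells and 12.0% with rapamycin, and 9.26% in untreated TJ cells and 12.9% with rapamycin, so that the change was larger in MKOC cells. The median within a line was 1.25 in MKOC and 0.34 in TJ cells. TPM sums to a fixed total, so a rise of these mRNAs lowers the TPM of all others. With mitochondrially encoded genes left out and TPM rescaled, an alternative added after the data were seen, summed TPM of the 77 genes fell by 15.9% in MKOC and 17.4% in TJ cells, in place of 22.3% and 20.7%. Nuclear genes of the respiratory chain and ATP synthase fell in 53 of 87 cases and rose in 3, with a median of -0.39. They were taken by symbol patterns that also admit assembly factors (Ndufaf). Cytosolic ribosomal proteins fell in 5 of 76 genes and rose in 3, with a median of -0.10. These shares are beside 17.4% lower and 17.5% higher over all genes, and no test between the groups was made.

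**Figure D4:**
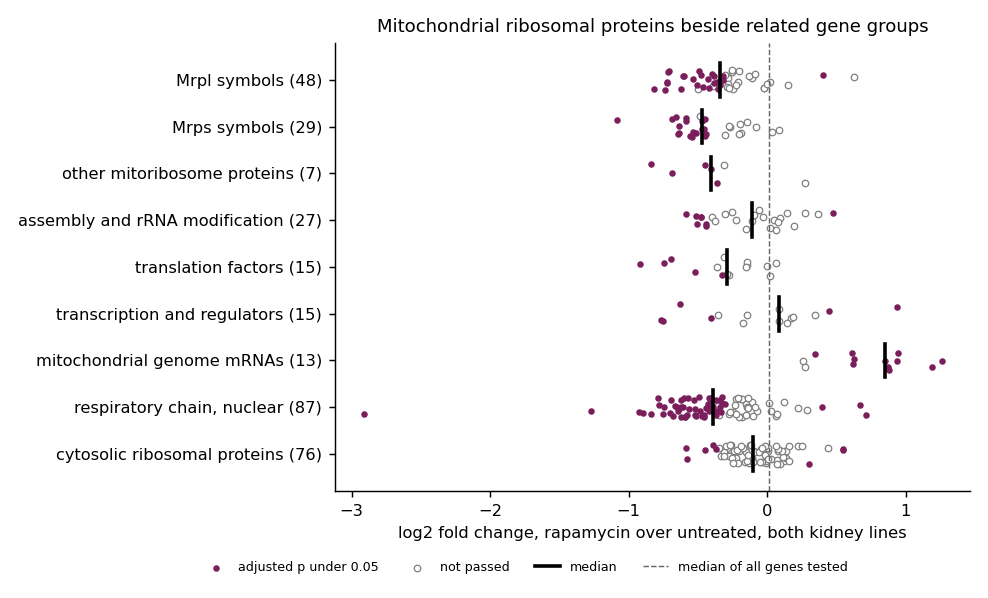
Log2 fold change, rapamycin over untreated in both kidney lines, of every tested gene of 9 groups (number of genes in parentheses), with filled points at an adjusted p under 0.05, a black bar at each group's median and a dashed line at the median of all genes tested. The Mrpl and Mrps groups and the nuclear respiratory chain genes lie mostly below 0, mitochondrial genome mRNAs lie above 0, and cytosolic ribosomal proteins lie around 0.

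Summed TPM fell by a larger share in the small subunit in both lines. The large subunit symbols summed to 3929 and 3816 TPM in untreated MKOC and TJ cells and to 3186 and 3088 TPM with rapamycin, a fall by 18.9% and 19.1%. The small subunit symbols summed to 2608 and 2410 TPM untreated and to 1895 and 1851 TPM with rapamycin, a fall by 27.3% and 23.2%. The ratio of large to small was 1.51 and 1.58 in untreated and 1.68 and 1.67 in treated MKOC and TJ cells. It was higher in both treated libraries (mean difference 0.13, exact permutation test without pairing by line, two-sided p = 0.333 with n = 2, the smallest possible). Without the most abundant gene of each subunit, Mrpl33 and Mrps16, the ratio was 1.59 and 1.68 in untreated and 1.69 and 1.73 in treated MKOC and TJ cells, a mean difference of 0.07. With all genes, it was 1.53 in Tsc2+/+ and 1.64 in Tsc2-/- MEFs. With medians over genes in place of sums, the ratio was 1.06 and 0.98 untreated and 1.13 and 1.04 with rapamycin in MKOC and TJ cells, so that treated TJ cells were then below untreated MKOC cells.

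Between the MEF libraries, which ask what goes with loss of Tsc2 in fibroblasts, genes of the 77 differed in both directions. Over 12513 genes the median ratio of Tsc2-/- to Tsc2+/+ MEFs was 1.33, a log2 shift of 0.41, and values are given relative to it. The median of the 77 genes was then 0.15, with 47 above 0 and 30 below. At least 1.5-fold higher in Tsc2-/- MEFs were 16 of the 77 genes, where 22.5% of all genes were, and at least 1.5-fold lower were 4, where 18.6% were. The count of higher genes depended on the setting, with 30 of the 77 against 23.1% of all genes where no filter on mean TPM was set, and 4 against 12.5% at a fold of 2. All 77 genes passed that filter, but without it a smaller all-gene median is subtracted, which moves their values up. Without the shift removed the median was 0.57, with 37 genes higher, where 39.9% of all genes were, and 0 lower, where 8.57% were. The large subunit symbols had a median of 0.18 and the small subunit symbols one of 0.03.

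Intervals of TPM that follow are 95% Wilson intervals of the estimated counts and cover counting error only. Mrps25, a mitochondria-specific small subunit protein, had the largest value in Tsc2-/- MEFs, with 13.7 TPM (12.8 to 14.6) in Tsc2+/+ and 50.5 TPM (48.0 to 53.1) in Tsc2-/- MEFs, 2.64-fold relative to all genes. Mrpl33 had 48.3 TPM (43.9 to 53.1) and 157 TPM (146 to 169), 2.42-fold. Mrpl19, of a bacterial family, had 18.3 TPM (17.2 to 19.5) and 59.2 TPM (56.0 to 62.5), 2.35-fold. The intervals were far apart for these 3 genes, and Mrpl53 (2.04-fold) and Mrps11 (1.98-fold) followed.

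Lowest in Tsc2-/- MEFs relative to all genes was Mrpl48, with 94.45 TPM (88.8 to 101) in Tsc2+/+ and 65.6 TPM (59.6 to 72.1) in Tsc2-/- MEFs, a log2 ratio of -0.93. Its transcript under 300 bases held 63.1% of its TPM in Tsc2+/+ MEFs, and without it the value was -0.63. Mrpl24 had 101 TPM (97.6 to 105) and 70.9 TPM (66.8 to 75.4), a log2 ratio of -0.92. Mrps2 (-0.67), Mrpl30 (-0.67) and Mrps16 (-0.58) came next, all of bacterial families. Mrpl2, at -0.35, was at 0.11 without its short transcript, which held 60.6% of its TPM in Tsc2+/+ MEFs.

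Other features also differed between these MEF libraries. Mesothelial markers summed to 2.66 TPM in Tsc2+/+ and 397 TPM in Tsc2-/- MEFs, and 5 of 5 were at least 1.5-fold higher, with Upk3b and Upk1b listed at 0 in Tsc2+/+ MEFs. Kidney epithelium markers summed to 0.253 and 77.6 TPM. Transcripts under 300 bases took 20.9% of TPM in Tsc2+/+ and 7.12% in Tsc2-/- MEFs, most of it the mitochondrial mt-Atp8. The part of these differences in the values above was not tested. Mitochondrially encoded genes took 22.8% and 11.5% of TPM in Tsc2+/+ and Tsc2-/- MEFs, with 17.5% and 4.79% in mt-Atp8 alone. Of estimated counts the mitochondrially encoded genes took 3.23% and 3.15%, so the TPM gap lay in this 1 short transcript. Summed TPM of the 77 genes, with no shift removed, was 1.41-fold higher in Tsc2-/- MEFs. It was 1.23-fold with mitochondrially encoded genes left out and TPM rescaled (an alternative added after the data were seen). In Tsc2+/+ MEFs most of the TPM left out was mt-Atp8. Cytosolic ribosomal proteins had a median of -0.78 relative to all genes, with 52 of 76 at least 1.5-fold lower, where the 77 mitochondrial genes had 4.

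The MEF and rapamycin values were also set side by side. Of the 42 genes that fell with rapamycin, 27 were above 0 in Tsc2-/- MEFs relative to all genes and 15 below, where 47 of all 77 were above 0. Across the 77 genes, the MEF ratio and the rapamycin fold change, which share no library, correlated with a Pearson r of 0.04 and a Spearman rho of -0.01. Mrpl33 was high in Tsc2-/- MEFs and rose with rapamycin, and Mrps22, with the largest fall, was at 0.16 in the MEFs.

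**Figure D5:**
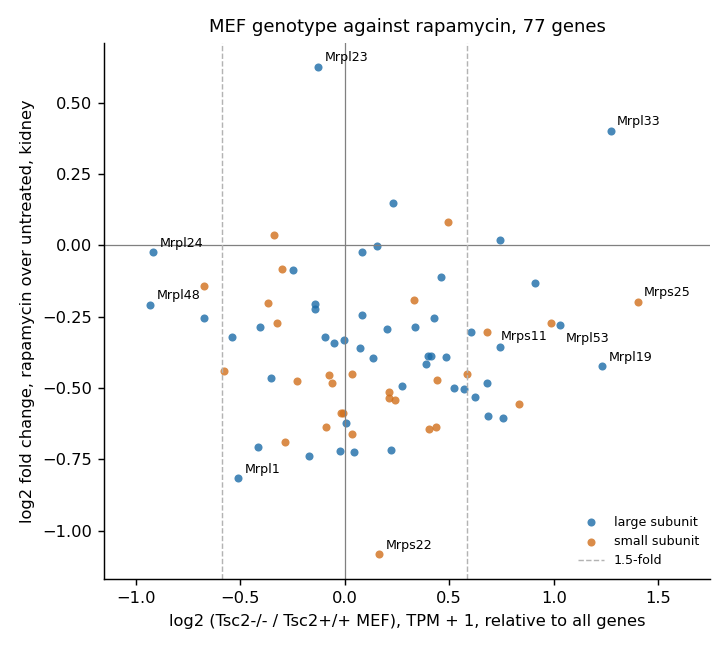
Log2 ratio of Tsc2-/- over Tsc2+/+ MEFs (TPM + 1, relative to all genes, horizontal) against the log2 fold change with rapamycin in the kidney lines (vertical) for the 77 genes, with dashed lines at 1.5-fold. The points show no clear slope (r of 0.04), and Mrpl33 is farthest to the upper right.

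The kidney lines were also compared with each other. Between untreated TJ and MKOC cells, 0 of the 77 genes were at least 1.5-fold higher in TJ cells (4.44% of all genes) and 0 at least 1.5-fold lower (2.67%), with a median log2 ratio of -0.09 relative to all genes and a range from -0.42 to 0.33. The highest were Mrpl51 (0.33), Mrpl2 (0.31) and Mrps36 (0.21), of which Mrpl2 was at -0.23 without its short transcript, and the lowest Mrps17 (-0.42), Mrps18c (-0.41) and Mrpl28 (-0.38). With rapamycin the median was -0.03, with 1 gene, Mrpl53, at least 1.5-fold higher in TJ cells (6.49% of all genes) and 1, Mrpl23, at least 1.5-fold lower (3.18%).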

How the data were processed

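RNA-seq of poly(A)-selected mRNA was made by the authors from 6 mouse libraries with a stranded kit and paired-end reads. Per the methods of the study, the authors trimmed reads and quantified transcripts with kallisto. The authors deposited an estimated count and a TPM value per transcript. A further table of the authors holds fold changes between the MEF libraries, of which only the symbols were taken. The methods name a human transcriptome, but the identifiers are mouse ones. Estimated counts of 88198 transcripts were summed per symbol (0.372% to 0.468% of counts had none), rounded, filtered with filterByExpr, scaled by TMM and tested with edgeR 4.0.16 (quasi-likelihood, cell line as covariate, adjusted p of 0.05). The labels name the line of each library, and deviations from the treatment means correlated at 0.56 within lines over 12952 genes. SE is the absolute log2 fold change over the root of F. Contrasts of single libraries used log2(TPM + 1) over genes with a mean of at least 1 TPM, less the median, and 1.5-fold as the call. This scale understates changes of low genes. All 77 genes passed both filters.

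Genes were named by rule: the 5 highest and 5 lowest levels, the 5 largest passing changes each way, the 3 smallest changes, the 5 extremes of the MEF ratio and the 3 of TJ over MKOC, members with known particularities (the Mrps18 genes, Mrps30, Mrps36 and Mrpl12) and up to 4 genes per list. Mrps6, Mrps10, Mrps12, Mrpl4, the genes of head-to-head pairs and the list genes that did not pass were named after their values were seen. Pseudogene copies of Mrpl23, Mrpl48 and Mrps36 are in the table, so the values of these 3 genes are uncertain. Members, lists and tests were chosen with earlier results of these data known. Nothing states that libraries came from separate cultures, so p-values measure the spread between these 2 lines only. On simulated data (12815 genes), the test recovered 77 of 98 genes changed 1.5-fold and 86 of 98 changed 2-fold, with 3 false calls. The simulation gave every gene the same preset dispersion, gave both lines the same change and changed few genes. It thus does not give the error rates of the test on these data. Alternatives were other scalings, filters, pseudocounts and thresholds, DESeq2 1.42.0, limma 3.58.1, fits without the line and with each library left out. Tools were R 4.3.3, Python 3.11.15 and pandas 2.3.3. Protein sequences were not used here.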

Additional observations from a re-analysis of the deposited data

Results flagged for a closer look

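Of the named genes, 8 had opposite signs in the kidney lines under rapamycin, as log2 ratios of TPM + 1 relative to all genes. The difference between the lines was not tested, since each line had 1 library per treatment. Mrpl53, a mitochondria-specific large subunit protein, had the widest gap, at -0.73 in MKOC and 0.17 in TJ cells. Mrpl34 was at -0.26 in MKOC and 0.28 in TJ cells, and Mrpl57, the gene with the lowest level, at -0.43 and 0.0419. Mrps21 was at -0.0165 in MKOC and 0.15 in TJ cells, and Mrpl54 at -0.0845 and 0.0889. Mrpl44 was at 0.0411 in MKOC and -0.0755 in TJ cells, Mrpl48 at 0.0276 and -0.15 (at -0.0140 and -0.27 without its transcript under 300 bases, so of 1 sign), and Mrpl24 at 0.0309 and -0.14.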

How the results depend on the processing

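The rapamycin counts depended on the number of libraries and on the line in the model, while the median of the 77 genes kept its sign under each alternative run. Of the 77 genes, 1 rose and 42 fell. The number that rose was 0 with DESeq2, 2 with no filter on low counts, 0 with no replicate block for the cell line and 0 at an adjusted p of 0.01, where 13.1% (no filter) and 10.1% (p of 0.01) of all genes rose. The number that fell was 16 with no replicate block and 23 at an adjusted p of 0.01, where 10.1% of all genes fell. With 1 library left out, in fits with 3 libraries and without the line, nearly all calls were lost, over all genes as well as among the 77. There the lone library of a treatment is assumed to vary like the others. Such fits have few degrees of freedom.

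For the MEFs, a fold of 2 gave 4 genes higher and 0 lower (12.5% and 8.53% of all genes), a pseudocount of 5 TPM gave 2 lower (12.3%), no centring gave a median of 0.57 with 37 higher and 0 lower, and no filter on mean TPM gave 0.45 with 30 higher and 2 lower (23.1% and 7.95%). With mitochondrially encoded genes left out, added after the data were seen, summed TPM fell by 15.9% in MKOC cells and fell by 17.4% in TJ cells, and the ratio of Tsc2-/- to Tsc2+/+ MEFs was 1.23. The ratio of large to small subunit, with Mrps18a and Mrps30 counted as large, was 1.72 in Tsc2+/+ MEFs, 1.89 in Tsc2-/- MEFs, 1.68 in untreated and 1.84 in treated MKOC cells, and 1.76 in untreated and 1.83 in treated TJ cells. From medians over genes it was 1.04, 1.16, 1.06, 1.13, 0.98 and 1.04 in the same order. The causes were not tested.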
